A study of Rattus norvegicus with 20 samples.

Results

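The lung pool was 1 small RNA sequencing library, prepared from the combined miRNA of 3 rats, and it was 1 of 20 libraries in the series. It was chosen by its tissue label alone. It was set against the other 14 tissues, which were 13 pools made in the same manner (fat, heart, kidney, large intestine, liver, skeletal muscle, pancreas, skin, small intestine, spleen, stomach, testes and thymus) and brain, taken as the mean of 3 hemispheres run singly. All the rats were untreated Long Evans males at postnatal day 35, so the groups differed by tissue and by no agent or allele. The 3 serum libraries were left out. A pool is 1 library without replicates, so no difference of lung was tested, and the spread between animals within lung cannot be seen. Fewer cells of a type and less miRNA per cell cannot be told apart in whole tissue.

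Levels are given as RPM, the reads of a precursor scaled to 1000000 reads assigned to the 444 miRBase precursors, each read being a whole miRNA, so that levels were not divided by length. The lung library held 2391745 such reads, against 162080 to 3685761 in the other pools and 388275 to 1204552 in the hemispheres. A level of 3 reads, taken as the limit of detection, was therefore 1.25 RPM in lung and between 0.814 and 18.5 RPM elsewhere. Each lung level carries a 95% Wilson interval, which covers counting error only, since PCR copies of a molecule are not independent. A difference is the level of lung minus the median of the other 14 tissues on the log2(RPM + 1) scale. As a measure of variation between animals, the SD of this log2 level over the 3 hemispheres had a median of 0.18 and a maximum of 0.95 across the 172 precursors at 100 RPM or more in brain. The library labelled pancreas held the hepatocyte miRNA mir-122 at 14862 RPM, and results that moved without that pool are given with the limits.

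A miRNA is cut from a hairpin precursor, loaded into an Argonaute protein, and pairs with messenger RNAs mainly through its seed, the short stretch near its 5′ end. The lung combines ciliated and secretory epithelium of the airways, the thin and the surfactant-producing epithelium of the alveoli, neuroendocrine cells, a very dense capillary bed, smooth muscle of airways and vessels, fibroblasts and resident leukocytes. Several miRNAs are known for single compartments of this kind, such as mir-34b/c and mir-449 in multiciliated cells, the mir-200 family in epithelium, mir-126 in endothelium, and mir-143 and mir-145 in smooth muscle.

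The mature sequences on which the results turn are printed 5′ to 3′ as RefSeq gives them for assembly GRCr8, with the seed, bases 2 to 8, in capitals. The first group shares the seed of the mir-34 and mir-449 families, and is shown because these were among the precursors that stood farthest above the other tissues in lung.
miR-34b-5p: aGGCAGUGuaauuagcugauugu
miR-34c-5p: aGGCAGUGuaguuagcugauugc
miR-449a-5p: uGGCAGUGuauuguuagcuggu
miR-449c-5p: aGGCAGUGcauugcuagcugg

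miR-34b-5p and miR-34c-5p had the same base at 21 of 23 positions, and miR-449a-5p and miR-449c-5p at 18 of 21. Between miR-34c-5p and miR-449a-5p only 10 of 22 positions matched, 7 of them being the seed. The next sequences belong to single miRNAs that stood well above the other tissues in lung, with miR-92a-3p printed because it shares the seed of miR-92b-3p and 19 of 21 positions.
miR-375-3p: uUUGUUCGuucggcucgcguga
miR-672-5p: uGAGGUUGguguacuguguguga
miR-141-3p: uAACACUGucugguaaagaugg
miR-146b-5p: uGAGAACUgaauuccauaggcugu
miR-92b-3p: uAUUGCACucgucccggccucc
miR-92a-3p: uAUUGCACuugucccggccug

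The third group holds families whose summed level in lung was the highest of the 15 tissues or close to it. miR-351-5p, miR-125a-5p and miR-125b-5p have the same seed although they come from separate clusters, and let-7b-5p and let-7c-5p differ at 1 of 22 positions.
miR-351-5p: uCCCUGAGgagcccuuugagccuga
miR-125a-5p: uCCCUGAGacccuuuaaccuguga
miR-125b-5p: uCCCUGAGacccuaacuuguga
miR-99b-5p: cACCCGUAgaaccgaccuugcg
let-7b-5p: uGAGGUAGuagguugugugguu
let-7c-5p: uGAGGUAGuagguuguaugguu

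The last group holds pairs in which the annotation bears on the reading of the values. miR-10b-5p is listed with a 5′ end 2 bases later than that of miR-10a-5p, which moves its seed. miR-3553 is the reverse complement of miR-183-5p over all 22 bases of the latter.
miR-10a-5p: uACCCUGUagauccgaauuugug
miR-10b-5p: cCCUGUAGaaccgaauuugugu
miR-183-5p: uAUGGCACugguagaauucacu
miR-3553: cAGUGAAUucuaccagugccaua

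The most abundant precursor in lung was mir-143, of smooth muscle, with 305970 reads or 127928 RPM (interval 127505 to 128351), which was 12.8% of the library. Its level ran from 24603 RPM in brain to 611902 RPM in stomach, with a median of 128474 RPM, so lung lay in the middle of the range, at rank 8 of 15, and differed from the median by -0.01. The next were mir-10a (92112 RPM), let-7f-1 (78923 RPM), mir-30a (66949 RPM), mir-181a-1 (56690 RPM), mir-181a-2 (55960 RPM), mir-27b (50748 RPM), mir-26a (46412 RPM), mir-22 (35416 RPM) and mir-126a (32972 RPM). The reads of miR-181a-5p were divided about evenly between its precursors mir-181a-1 and mir-181a-2, which are therefore 1 signal, of 112651 RPM when summed. These 10 precursors held 64.4% of the lung reads, where the corresponding share in the other libraries was 53.4% to 84.7%. Grouped by seed in the mature list, let-7 family members held 22.0% of the lung reads, and the 10 largest seed families held 84.2%.

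Precursors were compared when 3 or more of the 17 tissue libraries held 10 or more counts, which left 295. In lung, 90 (30.5%) were at least 2-fold, or 1 on the log2 scale, above the median of the other tissues, 21 (7.12%) of them by 3 or more, and 60 (20.3%) were at least as far below it. This split depended on scaling: it was 54 above and 90 below with TMM normalization, which scales libraries on the bulk of precursors in place of the total, 68 and 75 with DESeq2 size factors, and 70 and 76 once differences were centred on their own median of 0.33. The corresponding counts for the other tissues ran from 34 (large intestine) to 178 (brain) above and from 20 (skin) to 114 (pancreas) below. Lung was the highest of the 15 tissues for 18 precursors (6.10%), among the 2 highest for 45 (15.3%), and the lowest for 36 (12.2%). In 1 of the 18, mir-672, it stood at 100 RPM or more and at least 2-fold above the next tissue. Brain had 46 such precursors, testes 13 and muscle 8, whereas fat, kidney, liver, pancreas and stomach had 0 and large intestine 1. The median over the other tissues was 2.5 such precursors. For precursors highest in a tissue at any margin, that median was 11.5, against 18 in lung. Lung thus had few miRNAs that set it apart from every other tissue, and this was also so for several other tissues. Of the 149 precursors that did not meet the count minimum, 8 had 10 or more lung reads, with at most 29.

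**Figure D1:**
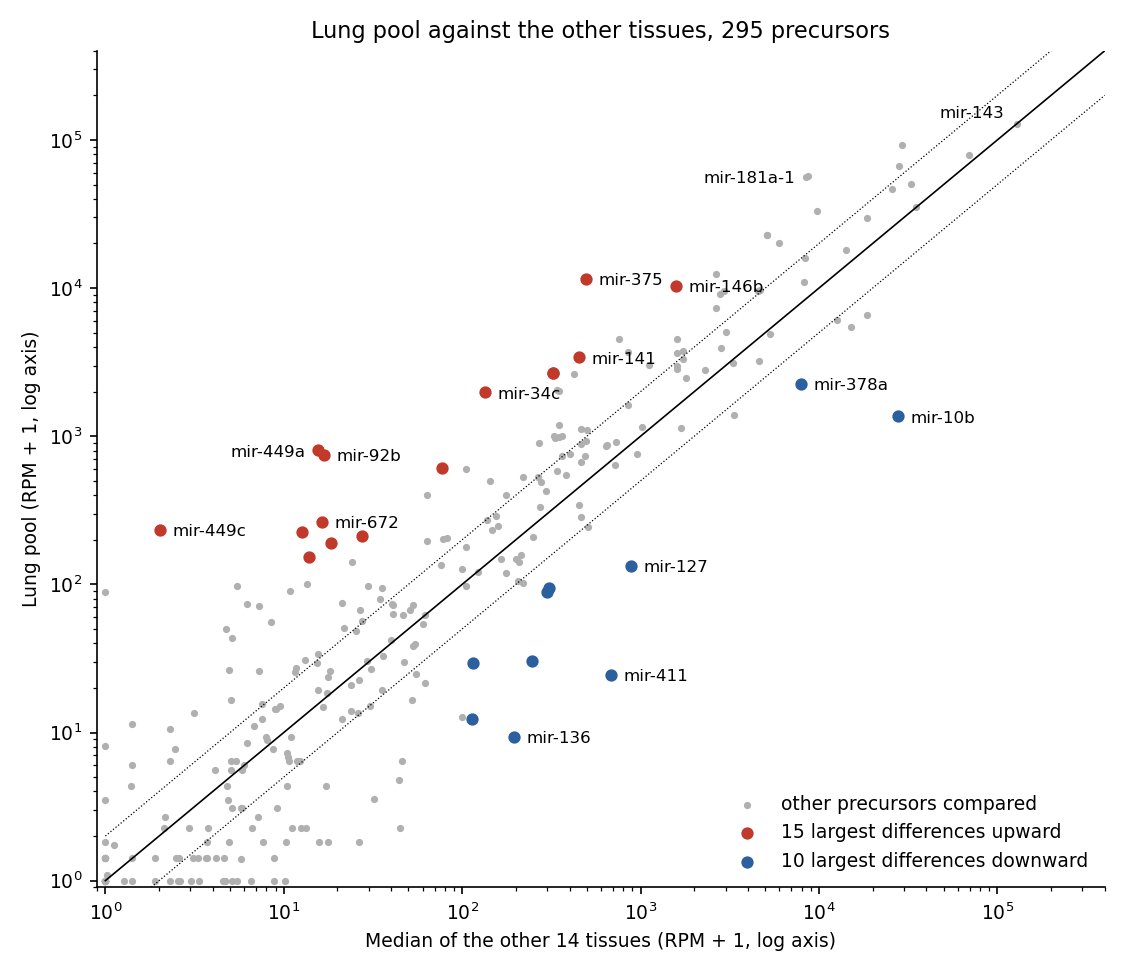
Level of each of the 295 precursors compared in the lung pool (vertical, RPM + 1, log axis) against its median over the other 14 tissues (horizontal, RPM + 1, log axis). The solid line marks equal levels and the dotted lines a 2-fold difference of RPM + 1. Red and blue points are the 15 precursors farthest above and the 10 farthest below that meet 100 RPM in lung or in the median of the others, and mir-143 lies on the line of equal levels.

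The miRNAs of multiciliated cells were the group farthest above the other tissues. All 4 of mir-34b, mir-34c, mir-449a and mir-449c were at least 2-fold above, against 30.5% of all precursors compared, with a median difference of 4.79, where the median over all precursors compared was 0.33. mir-449a had 1914 reads in lung, or 800.3 RPM (interval 765.2 to 836.9). In the other tissues it ran from 3.05 RPM in liver through a median of 14.5 RPM to 27295 RPM in testes, with thymus next at 106.3 RPM. The difference was 5.69, and every tissue other than testes was below lung.

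mir-449c had 557 reads in lung, or 232.9 RPM (interval 214.3 to 253.0), against 1098 RPM in testes and 28.1 RPM in spleen. It had no read in 6 of the other pools, so its difference of 6.86 rested on the 1 RPM that was added and was 4.46 when 10 RPM was added. In the mature list miR-449c-5p held only 1 lung read, so that the precursor carries this result.

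mir-34c was the most abundant of the group, with 4727 reads or 1976 RPM (interval 1921 to 2033). It ran from 54.1 RPM in stomach through a median of 133.2 RPM to 116708 RPM in testes, and brain was close to lung at 1796 ± 116 RPM (SD, n = 3), the difference of lung from the median being 3.88. mir-34b stood at 70.7 RPM (interval 60.8 to 82.2), against 47.3 ± 5.37 RPM in brain and 4344 RPM in testes, a difference of 3.30. Lung was thus second to testes for all of them, with 1.63% of the testes level for mir-34b, 1.69% for mir-34c, 2.93% for mir-449a and 21.2% for mir-449c. The sum of the 4 was 3080 RPM in lung, 149445 RPM in testes and 161 RPM in the median of the other tissues. In GRCr8, mir-449a and mir-449c lie within 10000 bases of each other between Mcidas, a regulator of multiciliated cell differentiation, and Gpx8, and mir-34b and mir-34c lie together between Layn and Btg4. Taken by seed in the mature list, where miR-34a-5p joins the 4, the family stood at 3161 RPM in lung, against a median of 232 RPM and 235432 RPM in testes.

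**Figure D2:**
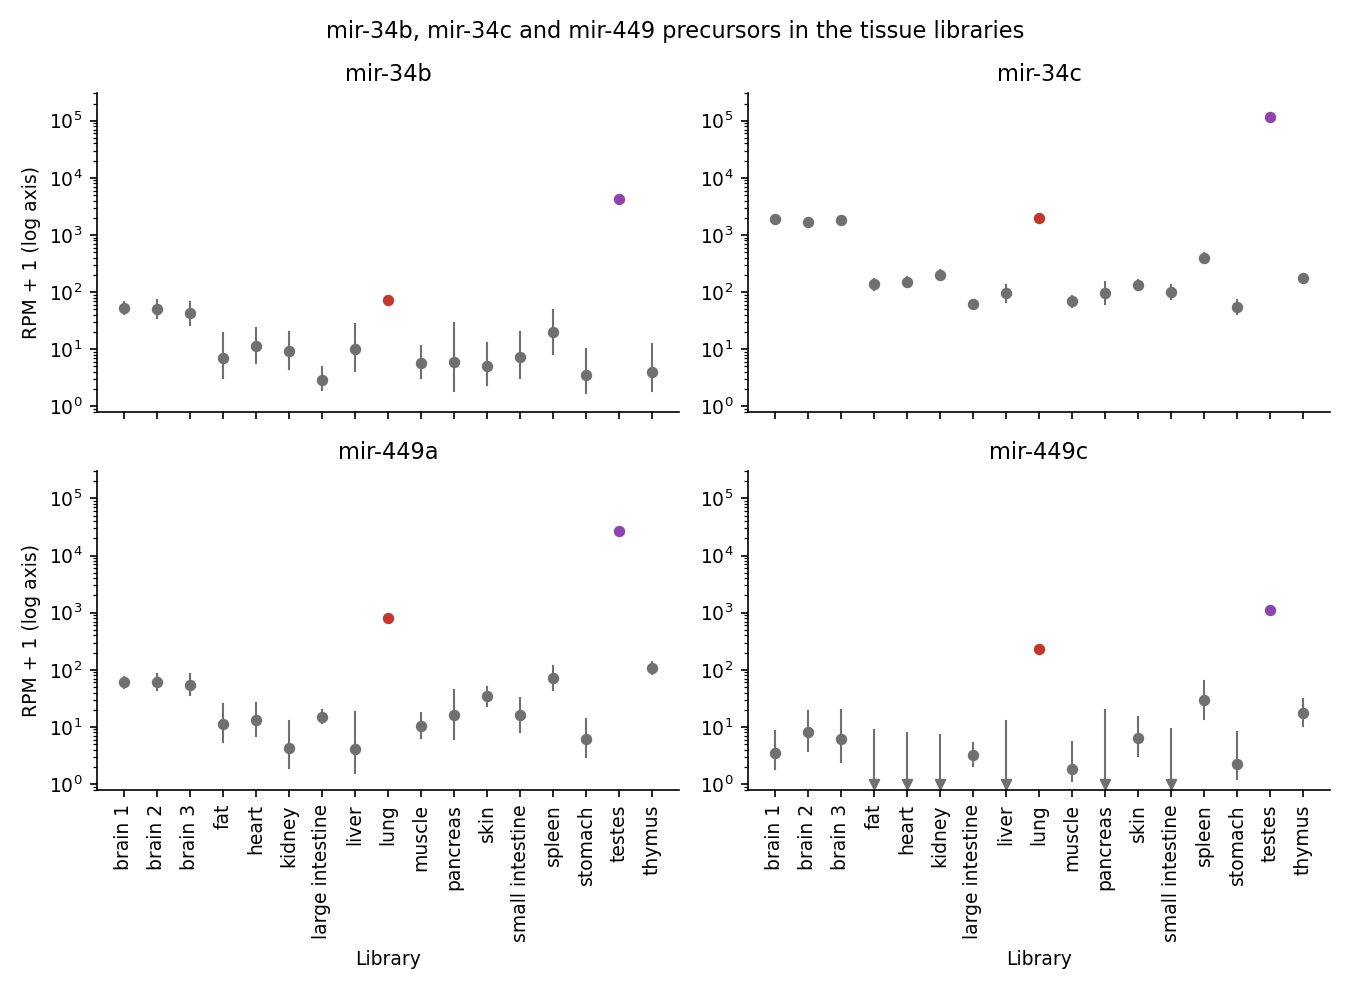
Levels of mir-34b, mir-34c, mir-449a and mir-449c (RPM + 1, log axis) in each of the 17 tissue libraries, with 95% Wilson intervals for counting error as vertical lines. Lung is red, testes purple, and triangles are libraries with 0 reads. Lung was below testes and above every other tissue for each precursor, brain being close to it for mir-34c.

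2 further precursors of the 15 farthest above also had testes among their highest tissues. mir-672, which lies within Nexmif in GRCr8, was at 264.7 RPM in lung (633 reads, interval 244.8 to 286.1). It stood at 123.4 RPM in testes and 92.7 ± 6.88 RPM in brain, with a median of 15.4 RPM and no read in pancreas and spleen. Lung was 2.14 times testes, with an exact conditional interval of 1.38 to 3.54 for counting error, so a ratio under 2 was not outside that interval. mir-3585 was at 223.3 RPM in lung (534 reads), at rank 3 after testes at 12481 RPM and heart at 317.7 RPM, with a median of 11.6 RPM and a difference of 4.18. Only 3.56% of its lung precursor reads were found in the mature list, where miR-3585-5p was at 9.54 RPM, also at rank 3. In GRCr8 mir-3585 lies within 10000 bases of mir-201 and mir-547, next to Fmr1. Those neighbours, named after their values were seen, also had lung at rank 3 with testes highest, mir-201 at 96.6 RPM against a median of 4.48 RPM and mir-547 at 10.5 RPM from 25 reads. Counting precursors at 100 RPM or more in lung, with both tissues at least 2-fold above the median of the remaining 13, lung and testes were the 2 highest for 6, which were mir-34c, mir-449a, mir-449c, mir-672, mir-151 and mir-3590, the last 2 named after their values were seen. Without the minimum of 100 RPM, mir-34b made 7.

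mir-375, known from pancreatic islets, neuroendocrine cells and secretory epithelium, had 27502 reads in lung, or 11499 RPM (interval 11364 to 11635). In the other tissues it ran from 6.94 RPM in heart through a median of 490.7 RPM to 18328 RPM in large intestine. By RPM, lung was second of 15, above small intestine at 7359 RPM and stomach at 4247 RPM, and its difference was 4.55. Lung was at 0.627 of the large intestine level (exact conditional interval 0.619 to 0.636). This order depended on scaling: lung was at rank 4 with TMM normalization (difference 3.67) and rank 3 with DESeq2 size factors (3.85). The library labelled pancreas held mir-375 at 495.7 RPM. The other members of its list did not accompany it: the neuronal and endocrine precursors mir-7a-1 had 4 lung reads and a difference of -1.42, and mir-7a-2 and mir-7b had 0 reads, which allows up to 1.25 RPM. The high value therefore belonged to mir-375 alone, which in GRCr8 lies between Fev and Cfap65.

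Of the 5 members of the mir-200 family, which maintains the epithelial state by repressing the Zeb factors, 4 were at least 2-fold above the median of the other tissues, where 30.5% of all precursors compared were, and none was below. mir-141 was highest among them, at 3399 RPM in lung (interval 3326 to 3473). It ran from 10.3 RPM in muscle through a median of 451.4 RPM to 5206 RPM in large intestine, with skin at 3792 RPM and thymus at 3509 RPM also above lung, a difference of 3.14. mir-429 was at 1004 RPM (difference 1.81, rank 6), mir-200a at 528.5 RPM (1.30, rank 7), and mir-200c at 89.5 RPM (3.09, rank 3). mir-200b, at 731.3 RPM, differed by 0.59, at rank 7. The family summed to 5752 RPM in lung, at rank 5, with large intestine highest at 15432 RPM, and the median was 2356 RPM. Lung thus stood well above heart and muscle, and below large intestine, for the family. Brain was above lung for mir-429 (1397 ± 388 RPM), mir-200a (929.2 ± 125 RPM) and mir-200b (834.6 ± 228 RPM). It was below lung for mir-141 (992.6 ± 149 RPM) and mir-200c (22.7 ± 11.4 RPM). With TMM normalization 3 of the 5 remained at least 2-fold above.

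The cluster of mir-183, mir-96 and mir-182, known from sensory and other epithelia, was represented mainly by mir-182. It was at 12410 RPM in lung (interval 12271 to 12551), at rank 3 after brain at 41799 ± 3674 RPM and skin at 38034 RPM, with a difference of 2.22. The precursor mir-3553, at 608.7 RPM and a difference of 2.98, overlaps mir-183 on the other strand. In the mature list 1471 lung reads were assigned to miR-3553 and fewer than 1 to miR-183-5p, its reverse complement as printed above. Since the strand of counting is not given in the sources used here, reads of these cannot be told apart. Summed, the locus was at 707.9 RPM in lung, at rank 3 with brain highest at 3281 RPM, with a difference of 2.98. mir-96 had 34 reads, or 14.2 RPM, and a difference of 0.71.

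The miRNAs of stratified epithelium were far below their level in skin and differed from the median in opposite directions. mir-203a, abundant in epidermis, was at 243.3 RPM in lung against 40295 RPM in skin, a difference of -1.05. mir-205, known from basal cells, was at 74.4 RPM from 178 reads, at rank 7 of 15, with skin at 9133 RPM and stomach at 997.3 RPM. Its median was 20.2 RPM, so that it still differed by 2.25. mir-203b, on the strand opposite mir-203a, held less than 1 read.

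**Figure D3:**
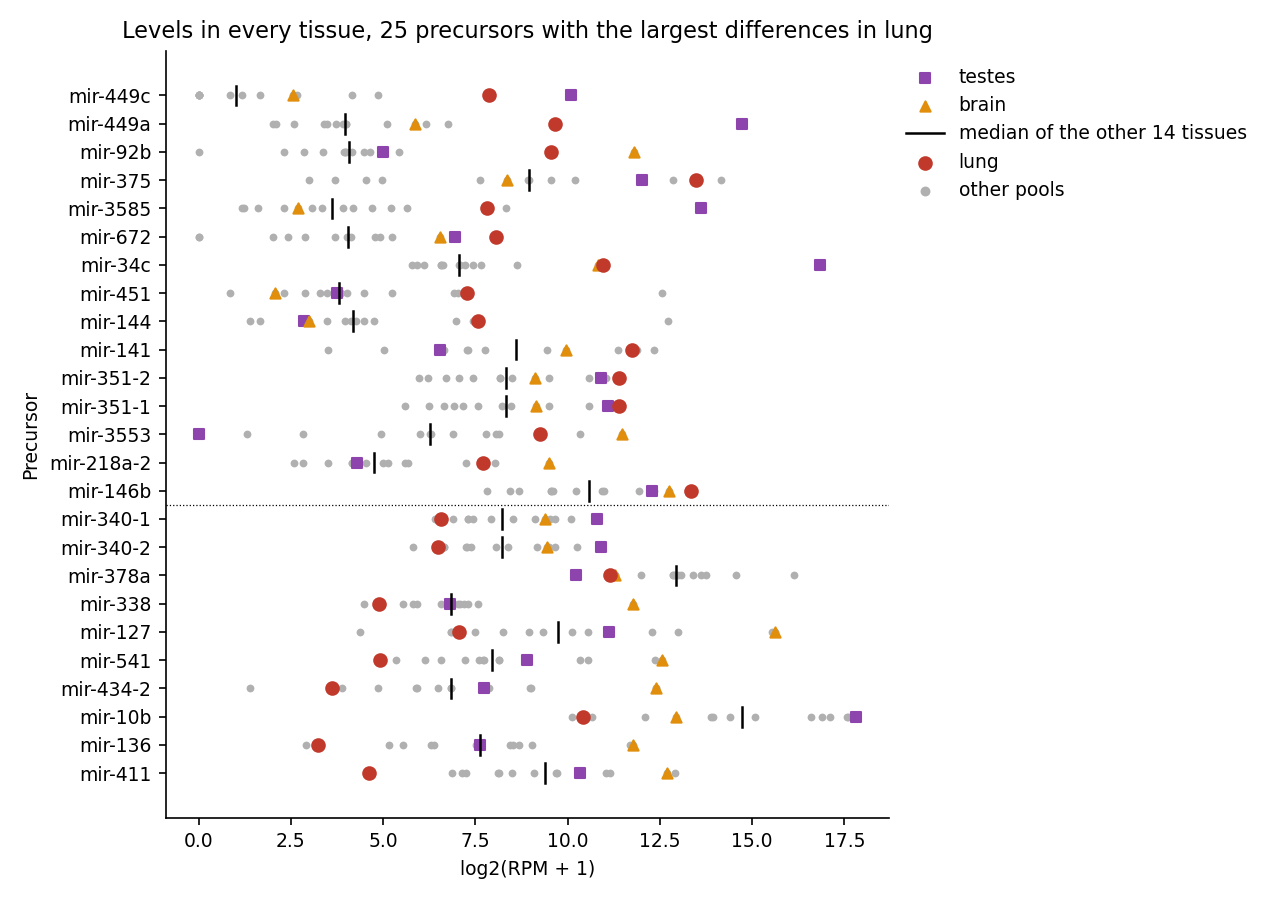
Level of the 15 precursors farthest above and the 10 farthest below the other tissues in lung (log2(RPM + 1), horizontal), with 1 point per tissue. Red circles are lung, purple squares testes, orange triangles the mean of the 3 brain hemispheres, grey points the other pools, and black ticks the median of the other 14 tissues. Lung is the lowest point for mir-411 and mir-541, and for most of the upper 15 another tissue lies to its right.

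Among the vascular miRNAs, mir-126a, hosted by the endothelial gene Egfl7, was at 32972 RPM in lung (interval 32746 to 33199). The other tissues ran from 2289 RPM in testes through a median of 9781 RPM to 42495 RPM in heart, and pancreas stood at 26437 RPM. The difference was 1.79. By RPM, lung was 0.776 of the heart level (exact conditional interval 0.765 to 0.787) and above every other tissue. It was at rank 5 with TMM normalization (difference 1.55) and at rank 3 with DESeq2 size factors (1.75), so its place was not fixed. mir-126b, listed in the same gene, held under 3 reads. mir-221 and mir-222, which share a cluster and are expressed in vessel walls, were second to brain, mir-221 at 398.5 RPM in lung against 620 ± 44.7 RPM in brain (difference 2.66) and mir-222 at 600.0 RPM against 1099 ± 115 RPM (2.53). With TMM normalization lung was at rank 4 for mir-221 and rank 3 for mir-222, and with DESeq2 size factors at rank 1 for both. For mir-222 only 0.767% of the lung precursor reads were found in the mature list, and the share in other tissues was 0 to 3.17%, so this value exists for the precursor alone.

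mir-145, the cluster partner of mir-143 within Carmn, was at 490.4 RPM in lung (interval 463.2 to 519.3), at rank 4 of 15, with a median of 274.9 RPM and stomach highest at 1686 RPM. Neither of these smooth muscle precursors was 2-fold from the median. In the mature list, miR-143-3p also was not (-0.25), but miR-145-5p was at 220.0 RPM against a median of 52.8 RPM (2.04), at rank 3. That list held 38.2% of the lung reads of the mir-145 precursor, against a median of 18.4% in the other tissues (5% to 41.2%). The place of mir-145 thus depended on the annotation. mir-218, hosted by the axon and vessel guidance genes Slit2 and Slit3, had lung at rank 3 after brain and kidney. mir-218a-2, within Slit3, was at 209.5 RPM against 724.9 ± 115 RPM in brain and 258.3 RPM in kidney (difference 2.96), and mir-218a-1, within Slit2, at 54.9 RPM (2.71). mir-218b, opposite mir-218a-1, stood at 9.53 RPM and had no read of its own in the mature list. The fibroblast list stood apart from these. mir-199a was at 3342 RPM (difference 0.96, rank 4 after skin, muscle and fat), mir-214 at 18.3 RPM (0.33), and mir-21 at 6127 RPM, rank 13 of 15, against a median of 12560.4 RPM (-1.03). The last call was lost without the pancreas pool, at -0.94.

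Of 6 leukocyte miRNAs, 2 were at least 2-fold above the median, a share near the 30.5% of all precursors compared, and none was below (1 with TMM normalization). mir-146b, which is induced by inflammatory signalling and represses its adaptors, was at 10360 RPM in lung (interval 10233 to 10489), the highest of the 15 tissues. It ran from 222.6 RPM in liver through a median of 1580 RPM to 9726 RPM in skin and 6805 ± 2495 RPM in brain, a difference of 2.76. The ratio to skin was 1.07 (exact conditional interval 1.04 to 1.09), and with TMM normalization lung was at rank 2. In the mature list miR-146b-5p was also at rank 2, with 12090 RPM in lung and 13662 RPM in skin, so the order of lung and skin was not fixed. Its relative mir-146a, with the same seed, was at 2819 RPM, near its median of 2291 RPM and below spleen at 9044 RPM. mir-150, of mature lymphocytes, was at 498.4 RPM (difference 1.96), at rank 3 after spleen at 2498 RPM and fat at 2072 RPM. mir-142, found in nearly all blood cells, was at 1629 RPM against 65299 RPM in thymus and 59167 RPM in spleen, and the median was 853.7 RPM. mir-223, of myeloid cells, stood at 47.2 RPM (113 reads, difference 0.93), and mir-155, of activated lymphocytes and macrophages, at 8.36 RPM (20 reads, -0.23). Lung was thus highest or second to skin for mir-146b but below spleen for the other 5.

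The erythroid precursors mir-451 and mir-144, which share a transcript and mark red cells, were at 152.2 RPM (364 reads, interval 137.3 to 168.6) and 190.7 RPM (456 reads, interval 173.9 to 209.0) in lung. Their medians were 12.9 and 17.3 RPM and the differences 3.46 and 3.39. Spleen held 6026 and 6790 RPM, and heart, at 130.2 and 197.9 RPM, and pancreas, at 119 and 173.5 RPM, lay close to lung. Lung was thus 1 of 3 organs at a similar level, far under spleen. The part of blood left in the vessels in any of the values was not tested.

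The X-linked cluster of mir-322, mir-503 and mir-351 lies between Hprt1 and Plac1 in GRCr8. All 8 of its precursors on the list used were above the median, by 1.38 to 3.48 with a median of 2.82. Of all precursors compared, 30.5% were 2-fold above. The 8 include mir-322, mir-503 and mir-351 as 2 copies each, every pair being 1 signal. mir-450b, in the same cluster but not on that list, differed by 0.98 with its copies summed, at rank 3 with muscle highest. The other copies of mir-542 were also not listed, and its 3 copies summed differed by 1.53. The sum of the 8 was 10920 RPM in lung, the highest of the 15 tissues, followed by muscle at 9221 RPM. The median was 1680 RPM, and small intestine was at 369.3 RPM. mir-351-1 and mir-351-2, which share a mature sequence and are 1 signal, came to 5346 RPM together, against 5197 RPM in muscle and a median of 644.3 RPM (difference 3.06). The ratio of mir-351-1 to muscle was 1.03 (exact conditional interval 0.984 to 1.07), so lung and muscle were not told apart at this depth. In the mature list miR-351-5p was at 6383 RPM in lung, at rank 4, against a median of 1014 RPM. The copies of mir-322, a regulator of the cell cycle, summed to 4083 RPM, against 4155 RPM in heart. The copies of mir-503 summed to 91.1 RPM, against 67.4 RPM in fat. With TMM normalization 7 of the 8 were still at least 2-fold above, while lung was at rank 4 for mir-351-1. The seed of miR-351-5p, shared with miR-125a-5p and miR-125b-5p, was at 11724 RPM in the mature list, the highest of the 15 tissues by a narrow margin over muscle at 11090 RPM.

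The cluster of mir-99b, let-7e and mir-125a, within Spaca6 in GRCr8, was 2-fold or more above in all 3 members, against 30.5% of all precursors, and in 2 of them with TMM normalization. mir-99b was at 2650 RPM in lung (interval 2585 to 2715), above brain at 1811 ± 58.4 RPM and testes at 1703 RPM, with a median of 423.3 RPM and 78.9 RPM in thymus, a difference of 2.65. let-7e was at 9565 RPM (1.71) and mir-125a at 3708 RPM (2.12), both second to brain at 10940 ± 1735 and 4653 ± 313 RPM. For mir-99b the excess over brain was larger than the SD of the hemispheres, whereas let-7e in lung lay within 1 SD of brain and its call was lost with TMM normalization, at 0.69. In the related mir-99a/let-7c/mir-125b and mir-100 clusters, 5 of 6 members were above and none below, where 30.5% of all precursors were above. Only 2 of the 6 were above with TMM normalization (median 0.15), with DESeq2 size factors or with centred differences. let-7c-1 and let-7c-2, counted as 2 of these members, share a mature sequence and are 1 signal. They summed to 45627 RPM in lung, the highest of the 15 tissues, against 40380 RPM in brain and a median of 10218 RPM. mir-125b-2, at 1125 RPM, differed by 1.27, and this call was lost with TMM normalization at 0.11.

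In the let-7 family, which is tied to differentiation and restrains growth genes, 7 of 12 members were above, where 30.5% of all precursors were, and none was below. In this count let-7a-1 and let-7a-2 are 1 signal under 2 names, and so are let-7c-1 and let-7c-2, all of them above. The members differed widely among themselves. let-7b, at 4528 RPM (interval 4444 to 4614), was highest in lung, with brain at 4286 ± 943 RPM within 1 SD and a difference of 2.57. let-7f-1 (78923 RPM, difference 0.18) and let-7i (29620 RPM, 0.71) were much more abundant and near their medians. let-7g, at 3207 RPM, was below its median by 0.52. With TMM normalization 3 members were above and 1 below. The mir-181 family, known in lymphocyte development, had 5 of 6 members above, against 30.5% of all precursors, but 2 of 6 with TMM normalization and 3 of 6 with DESeq2 size factors or centred differences. Here too the copies of mir-181a are 1 signal under 2 names, as are those of mir-181b. The 2 copies of mir-181a summed to 112651 RPM in lung against a median of 17150 RPM (difference 2.75), at rank 3 with thymus highest at 238011 RPM, and mir-181c, at 7367 RPM, differed by 1.48 (0.37 with TMM normalization).

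In the clusters of mir-23, mir-27 and mir-24, which act in vessels, 4 of 6 were above, against 30.5% of all precursors. mir-23b was at 979.2 RPM, the highest by 1.09 times over skin (exact conditional interval 0.999 to 1.19), and mir-27a at 1001 RPM (difference 1.47), while the far more abundant mir-27b differed by 0.63. None of the 6 was 2-fold above with TMM normalization. The mir-30 family was divided: mir-30a (66949 RPM, 1.25, or 0.81 with TMM normalization) and mir-30d (20160 RPM, 1.76, the highest of the 15 tissues with muscle at 18900 RPM) were above, and mir-30e (5420 RPM, -1.49) was below, at rank 14 of 15. mir-26a and mir-26b differed by 0.86 and 0.46, and mir-29a, a repressor of collagen genes, by 0.53 at 544.8 RPM. mir-29b-2, with 13 reads, was at 5.44 RPM and -0.86, and mir-29b-1 had 2 reads.

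The proliferation-associated mir-17-92 clusters were near their medians, 1 of 12 being above and none below, where 30.5% and 20.3% of all precursors compared were. With TMM normalization none was above and 4 were below, with a median difference of -0.79. mir-92a-1 was at 4886 RPM (-0.13), mir-25 at 2844 RPM (0.85) and mir-93 at 1096 RPM (1.13). The last reversed to -0.25 with TMM normalization. mir-92b stood in contrast to its relative: it was at 744.6 RPM against a median of 15.8 RPM, second to brain, and spleen was next at 42.2 RPM from 9 reads, so that both stood far above the rest. In the mir-15/16 group, mir-16 was at 11075 RPM (0.44), mir-195 at 761.4 RPM (0.92), mir-497 at 271.4 RPM (0.99) and mir-15b at 56.0 RPM (1.06, or 0.05 with TMM normalization). In the mir-130 and mir-301a group, mir-301a was at 642.2 RPM (-0.15), mir-130b at 61.5 RPM (0.43) and mir-301b at 2.09 RPM from 5 reads (-1.57). mir-130a was listed at 0.620 RPM, but its opposite-strand partner mir-3590 held 7215 lung reads. In the mature list, miR-130a-3p held 5396 of the reads of this locus and miR-3590-5p held 739.4, and 21 bases of these sequences are reverse complements. Summed, the locus was at 3017 RPM in lung, the highest of the 15 tissues, against 2591 RPM in testes and a median of 1121 RPM, a difference of 1.44.

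**Figure D4:**
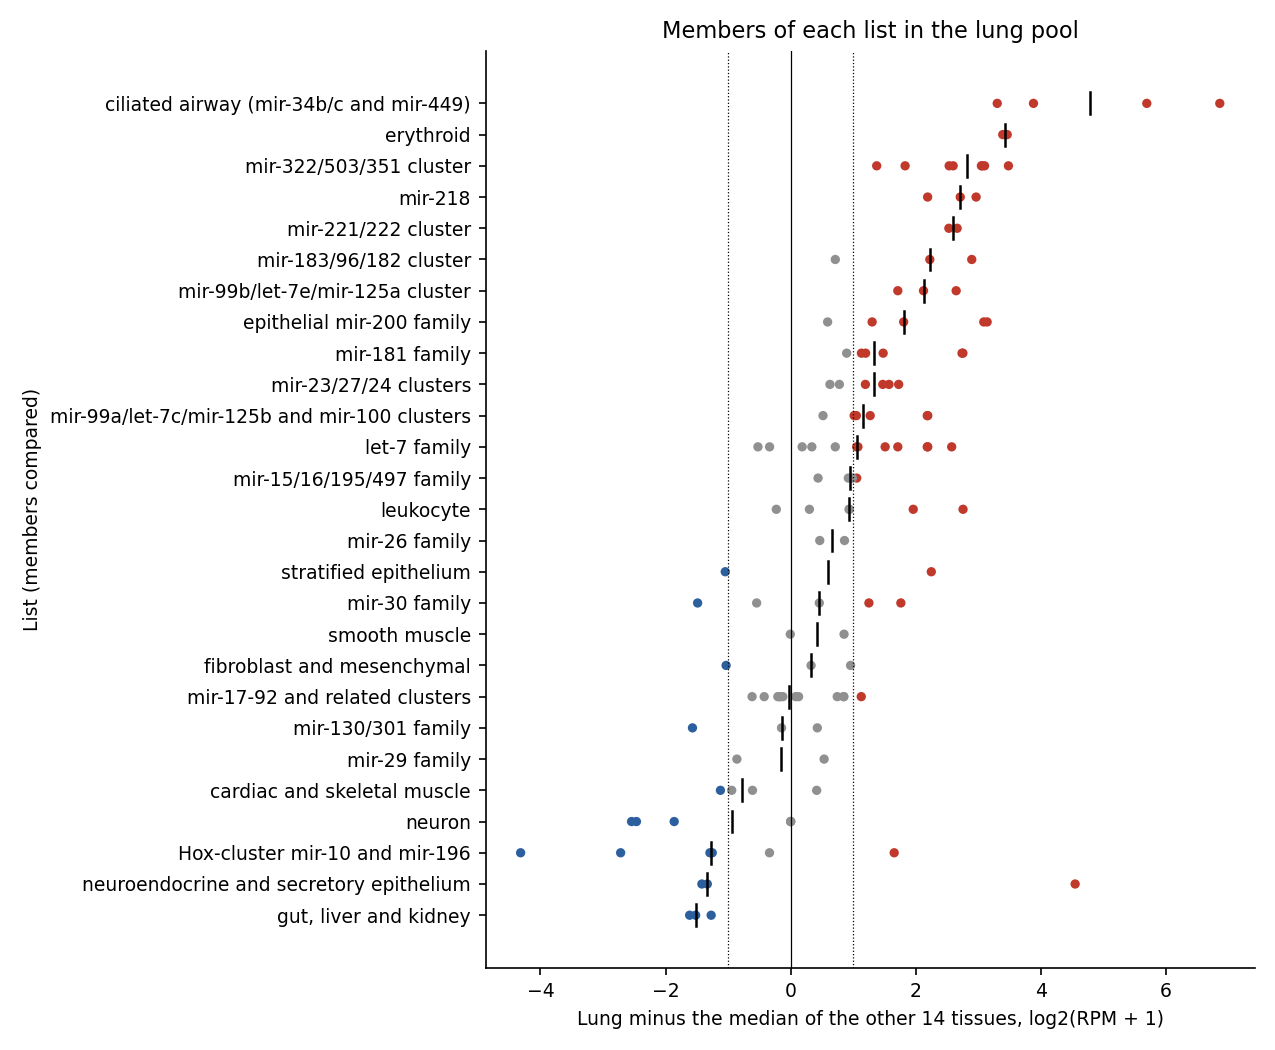
Difference of each member compared from the median of the other 14 tissues (log2(RPM + 1), horizontal) for the lists with at least 2 such members, ordered by their median (black tick). Red points are at least 1 above, blue points at least 1 below, and dotted lines mark those limits. The mir-34b/c and mir-449 list stands at the top with all 4 members between 3.30 and 6.86, and mir-375 lies far from the other members of its list.

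mir-10a and mir-10b, which lie in the Hoxb and Hoxd clusters and differ little in sequence, took opposite places in lung. mir-10a was at 92112 RPM in lung (interval 91746 to 92479), second to kidney at 159309 RPM, with 3492 RPM in testes and a median of 29302 RPM, a difference of 1.65 (0.87 with TMM normalization). mir-10b was at 1362 RPM (3258 reads, interval 1316 to 1410), at rank 14 of 15 and above pancreas alone. It had a median of 27899 RPM and reached 232046 RPM in testes, 198457 RPM in kidney and 193172 RPM in fat, a difference of -4.32. Kidney was thus high in both, testes in mir-10b only, and lung in mir-10a only. The mature list, with the shifted 5′ end printed above, held 31 lung reads of mir-10b, or 0.952% of its precursor reads, and 0.409% to 2.68% in the other tissues, so the low place of lung did not come with an unusual share. The mir-196 precursors of the Hox clusters had 2 lung reads or fewer each, mir-196b-2 being at 0.836 RPM against 502.2 RPM in large intestine.

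Of the 10 precursors farthest below, 5 belonged to the imprinted Dlk1-Dio3 region. In GRCr8 this region holds many miRNAs around Rtl1, and it is known for maternal expression in brain, muscle and embryo. The share of this region among all precursors compared was not counted, so whether 5 of 10 exceeds it was not tested. The remaining members of the region were not summarized, so these 5 do not describe it as a whole. mir-411 was at 23.4 RPM in lung (56 reads, interval 18.03 to 30.40), the lowest of the 15 tissues. The others ran from 114.6 RPM in heart through a median of 680.2 RPM to 6671 ± 1162 RPM in brain and 7641 RPM in muscle, a difference of -4.77. mir-541, at 29.3 RPM (70 reads), was also lowest in lung, against 39.5 RPM in thymus and 6063 ± 1940 RPM in brain (-3.02). mir-136 (8.36 RPM, 20 reads, -4.39), mir-434-2 (11.3 RPM, 27 reads, -3.21) and mir-127 (131.7 RPM, 315 reads, -2.67) were also far below, with kidney under lung for each. For these 5 precursors, lung was at 0.208% to 0.483% of the brain level.

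The other precursors far below came from separate loci. mir-378a, hosted by the metabolic coactivator gene Ppargc1b, was at 2249 RPM in lung against a median of 7888 RPM and 72069 RPM in muscle (-1.81), and only testes, at 1203 RPM, was lower. Under the name of mir-378a, the mature list held 0.0186% of its lung precursor reads, and at most 0.119% in the other tissues. The precursor of miR-3557-5p, named after its values were seen, lies within 10000 bases of mir-378a. In the mature list miR-3557-5p was at 2404 RPM in lung, at rank 14, against a median of 10582 RPM and 105691 RPM in muscle (-2.14). Whether its reads are those of the mir-378a locus was not tested. mir-340-1 and mir-340-2, which share reads, were at 93.2 and 87.8 RPM against medians of 304.3 and 299.3 RPM (-1.67 and -1.75), with testes highest. mir-338, hosted by the neural gene Aatk, was at 28.4 RPM (68 reads), against 3484 ± 933 RPM in brain and a median of 114.0 RPM (-1.97).

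Markers of other organs had few reads in lung or stood far below their highest tissue. The neuronal mir-124 precursors had 0 reads, which allows up to 1.25 RPM, and the 3 copies of mir-9a had 3 to 8 reads each, being below their medians by 1.86 to 2.54. Muscle precursors were scarce beside muscle and heart. mir-133a was at 66.5 RPM (159 reads) against 68920.0 RPM in muscle and 27262 RPM in heart, though near its median of 50.1 RPM (0.42, rank 7). mir-499 was at 12.5 RPM against 1236 RPM in heart, mir-133b was at 2.09 RPM, and mir-1 and mir-206 had 0 reads. The hepatocyte mir-122 had 3 reads. The gut, liver and kidney miRNAs mir-192 (1381 RPM, rank 14, -1.27), mir-194-1 (15.5 RPM, -1.62) and mir-194-2 (20.5 RPM, -1.52) were all below, where 20.3% of all precursors were. The acinar pancreatic mir-217 and mir-216a had 8 and 10 reads, and mir-216b had 0. The highest of the other tissues for the sum of the 3 was brain, at 52.7 RPM, and not the library labelled pancreas. Of these precursors, mir-217 was the only one compared with a difference of 1 or more, at 1.70 and a level of 3.35 RPM, and this was 0.36 when 10 RPM was added.

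Over the 295 precursors, the log2 levels of lung correlated best with those of stomach (Pearson's r = 0.874), heart (0.864), thymus (0.863) and large intestine (0.860), and least with muscle (0.697) and brain (0.591). These are correlations across precursors, which are not independent replicates. By Spearman's rho, thymus (0.860) came before stomach (0.850), so the order of the nearest tissues was not fixed. Although brain was the least similar, it was the tissue that most often stood with lung as the 2 highest among precursors at 100 RPM or more in lung, both being at least 2-fold above the median of the rest, for 13 precursors. These were let-7a-1, let-7a-2, let-7b, let-7c-1, let-7c-2, let-7d, let-7e, mir-3596b, mir-99b, mir-125a, mir-221, mir-222 and mir-92b, of which let-7a-1, let-7a-2, let-7d and mir-3596b were named after their values were seen. Testes followed with 6, skin with 4, heart and muscle with 3 each, and spleen with 2. Without the minimum of 100 RPM, brain had 14, with mir-1298, and testes 7.

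Grouped by seed, 188 families reached 100 RPM in at least 1 tissue in the mature list, of which 47 (25%) were at least 2-fold above the median in lung and 41 (21.8%) at least 2-fold below. The share of reads from the 5p arm could be compared for 77 precursors with 50 or more lung reads over both arms. In 70 of them it was within 5 percentage points of the median of the other tissues. In 17 it lay outside the range of the others. The farthest was mir-106b, with 42.6% from the 5p arm in lung (223 reads, interval 36.3% to 49.2%) against a median of 72.1% and a range of 52.2% to 82.3% over 6 tissues, so that the main arm differed. It was followed by mir-361 (74.4% against 84.8%), mir-339 (22.1% against 12.96%), mir-872 (82.4% against 90.8%) and mir-195 (86.8% against 93.9%). For mir-339 and mir-195 the lung value lay within the range of the other tissues, and for mir-872 it was just under the lowest, muscle at 82.5%. The arm choice of lung was thus mostly that of the other tissues, mir-106b being the exception.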

How the data were processed

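Per the study's methods, the small RNA libraries were made with a TruSeq kit and run on a MiSeq, base calls of low quality were trimmed, Bowtie placed the reads on Rn5, and Partek counted them against miRBase and RefSeq. The authors deposited an estimated count of reads per miRNA, not normalized, in 3 stacked annotations (444 precursors, 577 mature and 388 RefSeq miRNAs). RPM were computed here within the precursor annotation, brain was averaged over its 3 libraries, 1 RPM was added and log2 taken. Estimated counts were rounded for the filter (10 counts in 3 of 17 libraries). Lung had 1 library, so no statistical test was run. Intervals are Wilson at 95%, and exact conditional binomial for ratios. Named precursors were the 15 farthest above (lung at least 100 RPM), the 10 farthest below (median at least 100 RPM), the 10 most abundant in lung, those highest in lung at least 2-fold over the next, mir-375 and mir-143, the 3 most abundant of each list with lists of up to 4 in full, and the 5 arm shares farthest from the others. Members and lists were chosen with earlier results of these data known. Alternatives covered the RPM added, scaling (TMM from edgeR 4.0.16, size factors from DESeq2 1.42.0, under R 4.3.3), filter, reference and annotation. The calculation was run on simulated counts with known changes placed in lung. These held counting error only, with no variation between animals or among the other tissues, so they do not bear on how scaling moved the calls. The software was Python 3.11.15 with SciPy 1.17.1, Matplotlib 3.10.9, NumPy 2.4.6 and pandas 2.3.3. Sequences and neighbouring genes came from RefSeq (GRCr8), and no coordinates are given since the files use Rn5.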

Additional observations from a re-analysis of the deposited data

How the results depend on the processing

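With 10 RPM added, 26 precursors were below. With TMM normalization, 54 were above and lung was highest for 10, and all differences of lung moved by -0.48 in the median. Requiring 10 counts in every library left 100 precursors, 38 above and 13 below. Lung was highest for 30 against the 13 pools only, for 9 of 290 mature miRNAs and for 10 of 266 RefSeq miRNAs. For stomach, the correlation was 0.850 by Spearman's rho and 0.891 with 10 RPM added. Leaving out each hemisphere gave 90 above, 60 below and 17 to 18 highest. mir-93 reversed to -0.25 with TMM normalization. The 15 farthest above and 10 farthest below were still called under every setting that kept them, and the strictest filter kept 5 and 8 of them. For the 15, the differences were 2.06 to 6.08 with TMM normalization and 2.61 to 5.05 with 10 RPM added. Of the other named precursors, calls lost with TMM normalization included let-7e (0.69), mir-10a (0.87), mir-23b (0.73), mir-27a (0.37), mir-30a (0.81), mir-181c (0.37) and mir-15b (0.05). Ranks of lung moved as well, for mir-10a from 2 to 5, mir-182 from 3 to 6, mir-23b from 1 to 3 and mir-30d from 1 to 2. Those of mir-34c, mir-449a and mir-92b stayed at 2, and those of mir-672 and mir-99b at 1. Summing overlapping precursors, summing numbered copies and centring the differences were chosen after seeing the data and gave 87, 76 and 70 above. Without the pancreas pool, mir-21 (-0.94) and mir-15b (0.99) were no longer called, and mir-142 (1.08), mir-96 (1.04) and mir-133b (-1.18) were. Why scaling moved the counts was not tested. No paired analysis was possible because lung is 1 pooled library and its result comes from no test. Depth limits the shallow pools most, where 3 reads reach 18.5 RPM.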

Other observations

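mir-1298 was named after its values were seen, since its lung level was under the 100 RPM of the naming rule. It had 209 lung reads, or 87.4 RPM (interval 76.3 to 100), against 1048 RPM in brain and 9.37 RPM in spleen, and 0 reads in 8 of the other pools. mir-224, also outside that rule, was at 72.3 RPM (173 reads, interval 62.3 to 83.9) and highest in lung, with muscle next at 59.5 RPM and a median of 5.18 RPM. The ratio of lung to muscle was 1.21 (exact conditional interval 0.921 to 1.61), so that the order of these tissues was not fixed at this depth.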
